A study of Mus musculus with 8 samples.

Results

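Fragments of the cytosolic tRNAs that carry the aromatic amino acids were followed in β-cells of diabetic and control mice. These tRNA fragments (tRFs) came from the isoacceptors Phe-GAA (phenylalanine), Tyr-GTA (tyrosine) and Trp-CCA (tryptophan), where the letters after the hyphen are the anticodon. Members were selected on the tRNA name in the authors' table, which gave 181 of its 2226 sequences, and they made up 59 sequences of Phe-GAA, 49 of Tyr-GTA and 73 of Trp-CCA, each 16 to 30 nt long. Each listed sequence reached 5 counts in 4 or more of the 8 libraries, so a measured value decided which fragments could be members, and 2 members reached 5 counts in wild type libraries only. The diabetic animals were db/db mice, strain BKS.Cg-Dock7m+/+ Lepr db J, which lack a working leptin receptor, and the controls were wild type mice, strain BKS.Cg-Dock7m+/+. Both genotypes were male and 8 weeks old, with 4 libraries of small RNA each. Below, values of single libraries are in the order 1 to 4 within each genotype. Each library was an independent preparation in which the islets of several mice were pooled before β-cells were sorted by flow cytometry on autofluorescence. The table holds tRNA fragments and no mRNA, so the sorted cells could not be checked against β-cell markers.

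A tRNA is read from its 5′ end through the D arm, the anticodon arm and the T arm to the acceptor stem. The bases CCA at the 3′ end are not encoded in mouse tRNA genes but are added by a dedicated enzyme, and the amino acid is attached to the last A, so a tRNA without that A cannot be charged. Isodecoders are tRNAs with the same anticodon and small differences elsewhere, and tyrosine tRNA genes carry an intron next to the anticodon that is spliced out.

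The assembly GRCm38.p6 lists 7 nuclear tRNA genes for Phe-GAA on 5 chromosomes, 10 for Tyr-GTA on 4 chromosomes and 8 for Trp-CCA on 3 chromosomes in the RefSeq annotation. Their lengths are 73 bp for Phe-GAA and 72 bp for Trp-CCA, while the Tyr-GTA genes, introns included, span 86 to 93 bp. The fragments were not matched to these genes, because no genome sequence was used here, so none is given genome coordinates. None of the 181 members was found inside the 22 mitochondrial tRNAs, and none was contained in, or contained, a fragment of another isoacceptor.

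The fragments of Phe-GAA that begin at one and the same base show the ladder of 3′ ends on which most of the results turn. Capitals mark the bases of the CCA end that remain.
Phe-GAA 27 nt, complete: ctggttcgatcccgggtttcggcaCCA
Phe-GAA 26 nt, 1 base short: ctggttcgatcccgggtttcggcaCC
Phe-GAA 25 nt, 2 bases short: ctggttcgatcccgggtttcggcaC
Phe-GAA 24 nt, 3 bases short: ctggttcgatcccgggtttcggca
Phe-GAA 22 nt, 5 bases short: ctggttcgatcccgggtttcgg
The most abundant short Tyr-GTA fragment stopped 1 base before its end and the most abundant short Trp-CCA fragment 3 bases before it. They are shown beside their complete partners, together with the most abundant complete fragments of Phe-GAA and Tyr-GTA.
Tyr-GTA 17 nt, complete: tccggctcgaaggaCCA
Tyr-GTA 16 nt, 1 base short: tccggctcgaaggaCC
Trp-CCA 27 nt, complete: cgtgttcgaatcacgtcggggtcaCCA
Trp-CCA 24 nt, 3 bases short: cgtgttcgaatcacgtcggggtca
Phe-GAA 29 nt, complete: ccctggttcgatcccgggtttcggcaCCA
Tyr-GTA 29 nt, complete: cgctggttcgattccggctcgaaggaCCA

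The libraries held between 582165 and 2946290 tRF counts, and the deepest was db/db library 3. That library stood apart from its group in several Phe-GAA and Tyr-GTA fragments, and without it 70 members were called lower in place of the 49 given below. Members took 6.25% to 10.1% of the tRF counts in wild type and 5.95% to 11.2% in db/db libraries. By level Trp-CCA ranked 3rd among the 48 names in the table, Tyr-GTA 15th and Phe-GAA 20th. Among all 1832 tested sequences of the table, 173 were called lower in db/db β-cells and 102 higher, and the median log2 fold change was 0.0017. A sequence was called where edgeR's quasi-likelihood test gave an adjusted p below 0.1 and the fold change was above 2, with counts scaled by TMM (trimmed mean of M values). A fragment's level is relative to the other tRFs of its library, and in sorted bulk cells a lower level may be fewer cells of a type or less RNA per cell, which cannot be told apart.

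Fragments of Phe-GAA, summed, were lower in db/db β-cells. They held 1.06%, 2.05%, 0.489% and 0.574% of the tRF counts in wild type and 0.433%, 0.324%, 0.570% and 0.319% in db/db. The genotypes overlapped, because db/db library 3 lay above wild type library 3. The log2 fold change of the total was -1.37 (SE 0.35, adjusted p = 0.0237, edgeR), and without wild type library 2 the difference was -0.89 and no longer passed (adjusted p = 0.162). The call was also lost with the authors' effective library sizes (-1.86, adjusted p = 0.883). Of 48 isoacceptor totals tested, 1 was called lower, which is 2.08%, and it was Phe-GAA.

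The tyrosine and tryptophan fragments as a whole did not pass the test. Tyr-GTA held 1.33%, 2.09%, 0.782% and 0.776% of the wild type tRF counts and 0.867%, 0.681%, 1.04% and 0.635% of those in db/db (log2 fold change -0.66, SE 0.28, adjusted p = 0.341, edgeR). Trp-CCA held 7.75%, 5.54%, 5.78% and 4.90% in wild type and 6.97%, 4.94%, 9.57% and 6.12% in db/db (log2 fold change 0.15, SE 0.22, adjusted p = 0.748, edgeR). Both sets of libraries overlapped.

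Most of the called members lacked the last bases of the tRNA. Of the 153 members that passed the filter on low counts, 49 were called lower and 0 higher, at a median log2 fold change of -0.72, beside 9.44% called lower among all tested sequences. At an unadjusted p below 0.05, 60 members passed and 0 of them were higher, and DESeq2 called 50 lower and 0 higher. Of the 49, 42 did not overlap between the genotypes in normalised counts. The same was true of 46 of the 153 tested members and of 314 of all 1832 tested sequences. By isoacceptor, 30 of 52 tested sequences of Phe-GAA, 10 of 43 of Tyr-GTA and 9 of 58 of Trp-CCA were called lower. Fragments of one tRNA share their sequence and their source, so they are not independent replicates.

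Sequences that stop 1 to 3 bases before the end made up 41 of the 49 called members. The filter favoured this outcome: it asks for 13.4 CPM or more in at least 4 libraries, and 23 of the 41 tested short members reached that level in the 4 wild type libraries and in no db/db library, which requires a lower db/db value. All 41 passed on their wild type libraries, and 4 would also have passed on the db/db libraries. The calls among the tested, 22 of 22 for Phe-GAA, 10 of 10 for Tyr-GTA and 9 of 9 for Trp-CCA, are therefore given as a description only. In the fit without this filter, which covers all 53 short members, 25 of 25 of Phe-GAA, 11 of 11 of Tyr-GTA and 16 of 17 of Trp-CCA were called lower, at median log2 fold changes of -3.86, -3.57 and -2.45. Membership itself still needed 5 counts in 4 libraries. Of all 206 sequences in the table that are 1 to 3 bases short, 174 were called lower in that fit and 0 higher.

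The sequences that end in CCA behaved differently. None of 32 tested for Tyr-GTA (median log2 fold change -0.18) and none of 39 for Trp-CCA (median -0.054) was called, whereas 3 of 17 for Phe-GAA were called lower (median -0.93). In the table as a whole, 4 of 894 tested CCA-ending sequences were called lower and 68 higher. The 3 Phe-GAA sequences were 24, 26 and 30 nt long, with log2 fold changes of -1.41 (SE 0.47, adjusted p = 0.0499), -1.40 (SE 0.50, adjusted p = 0.0700) and -1.57 (SE 0.53, adjusted p = 0.0547, all edgeR), and each of them overlapped between the genotypes.

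**Figure D1:**
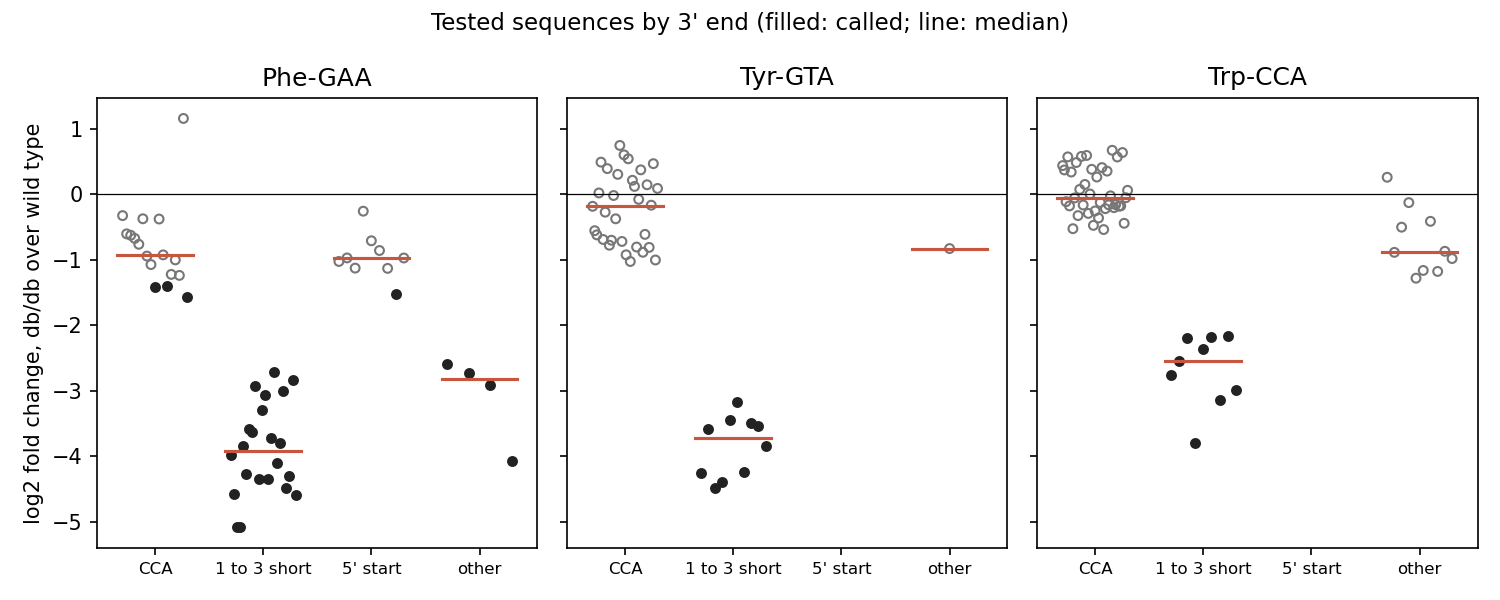
Log2 fold change of db/db over wild type (vertical axis) for the 153 tested members, by the kind of end and by isoacceptor; filled points are called, open points are not, red lines are medians, and within a column points run from short to long fragments. The 41 tested sequences that are 1 to 3 bases short lie between -5.08 and -2.16, while those that end in CCA lie between -1.57 and 1.16.

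Within the Phe-GAA ladder, the fragments 1 to 3 bases short had lower normalised counts in db/db than in wild type libraries. The complete 27-nt fragment had 250, 1041, 126 and 229 counts in wild type and 163, 107, 1076 and 177 in db/db (log2 fold change -1.22, SE 0.52, adjusted p = 0.161, edgeR). Its value was -0.21 without wild type library 2 (adjusted p = 0.903), and it was called lower without wild type library 3 (-1.41, adjusted p = 0.0695), wild type library 4 (-1.51, adjusted p = 0.0673) or db/db library 3 (-1.69, adjusted p = 0.0423). The 26-nt fragment had 129, 283, 41 and 100 counts in wild type and 3, 2, 47 and 3 in db/db (log2 fold change -4.49, SE 0.65, adjusted p = 3.48e-05, edgeR), with -3.88 without wild type library 2 and -5.88 without db/db library 3. The complete form overlapped between the genotypes in normalised counts and the form without the A did not.

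The next steps of the ladder were lower as well. The 25-nt fragment had 107, 218, 59 and 79 counts in wild type and 11, 4, 110 and 12 in db/db (log2 fold change -3.00, SE 0.57, adjusted p = 0.000404, edgeR). The 24-nt fragment, from which the whole CCA is missing, had 177, 189, 63 and 79 counts in wild type and 4, 3, 76 and 10 in db/db (log2 fold change -3.72, SE 0.60, adjusted p = 9.59e-05, edgeR). In these counts db/db library 3 was the highest of its group at each step, and it is also the deepest library. Without it the values of the 25-nt and 24-nt fragments were -3.98 and -4.80.

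Phe-GAA had its most abundant short sequence at 28 nt, the partner of the most abundant complete one of 29 nt.
Phe-GAA 28 nt, 1 base short: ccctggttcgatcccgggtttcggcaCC
Phe-GAA 18 nt, 1 base short: atcccgggtttcggcaCC
The 28-nt sequence had 402 ± 294 normalised counts (CPM, scaled to a library of 1000000; SD, n = 4) in wild type and 15.8 ± 12 in db/db (log2 fold change -4.58, SE 0.59, adjusted p = 8.3e-06, edgeR). Its complete partner had 1508 ± 966 CPM in wild type and 637 ± 431 in db/db (log2 fold change -1.24, SE 0.48, adjusted p = 0.104). This partner was called lower without a normalisation factor (-1.21, adjusted p = 0.0843) and without wild type library 3 (-1.43, adjusted p = 0.0383), wild type library 4 (-1.42, adjusted p = 0.0828) or db/db library 3 (-1.78, adjusted p = 0.00852), while the 28-nt sequence had -5.28 without db/db library 3. The 18-nt sequence, shown because it had the largest decrease, had 23, 78, 16 and 43 counts in wild type and 1, 0, 6 and 1 in db/db (log2 fold change -5.08, SE 0.70, adjusted p = 1.93e-05), with -4.46 without wild type library 2 and -5.86 without db/db library 3, and the value depends on how a count of 0 is treated. This sequence passed the filter through wild type libraries only, so a lower db/db value was required and its test is a description only.

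For tyrosine the most abundant short end was on a short fragment. The 16-nt fragment without the last A had 633, 1272, 357 and 673 counts in wild type and 31, 27, 178 and 60 in db/db (log2 fold change -4.25, SE 0.45, adjusted p = 1.77e-06, edgeR). Its complete partner of 17 nt had 815, 1163, 494 and 1066 counts in wild type and 664, 540, 2561 and 560 in db/db (log2 fold change -0.56, SE 0.36, adjusted p = 0.408). The short form had more counts than the complete one in wild type library 2, and fewer in the other wild type libraries and in every db/db library.

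The Tyr-GTA sequence with the largest decrease kept the first C of the end.
Tyr-GTA 17 nt, 2 bases short: attccggctcgaaggaC
It had 28, 74, 18 and 37 counts in wild type and 1, 1, 7 and 3 in db/db (log2 fold change -4.48, SE 0.64, adjusted p = 2.68e-05, edgeR). It reached the filter level of 13.4 CPM in no db/db library. A lower db/db value was therefore required, and the test is a description only. The 4 sequences of Tyr-GTA that are 1 base short were 16 or 17 nt long, and the 7 that are 2 bases short ran from 16 to 30 nt. The complete 29-nt fragment of Tyr-GTA, the most abundant, had 2546 ± 1345 CPM in wild type and 1449 ± 844 in db/db (SD, n = 4; log2 fold change -0.81, SE 0.42, adjusted p = 0.281, edgeR), and it was called lower without db/db library 3 (-1.26, adjusted p = 0.0356).

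Tryptophan differed in which bases were missing. All 17 short sequences of Trp-CCA lacked exactly 3 bases, that is, the whole CCA. The 24-nt fragment had 30, 53, 32 and 44 counts in wild type and 4, 4, 19 and 8 in db/db (log2 fold change -2.99, SE 0.51, adjusted p = 0.000163, edgeR). This 24-nt fragment passed the filter through wild type libraries only, as did 6 of the 9 tested short Trp-CCA sequences, so its test is a description only. Its complete partner of 27 nt had 1560, 1140, 1163 and 1978 counts in wild type and 1347, 788, 7090 and 2237 in db/db (log2 fold change -0.025, SE 0.35, adjusted p = 0.976), a value whose sign changed with the filter and the scaling.

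The abundance of tryptophan fragments came from complete ends.
Trp-CCA 17 nt, complete: tcacgtcggggtcaCCA
Trp-CCA 22 nt, 3 bases short: tgttcgaatcacgtcggggtca
The 17-nt fragment, the most abundant of Trp-CCA, had 6673 ± 2471 CPM in wild type and 8622 ± 3475 in db/db (SD, n = 4; log2 fold change 0.37, SE 0.36, adjusted p = 0.618, edgeR). The 22-nt fragment had the largest decrease, with 13, 26, 26 and 21 counts in wild type and 1, 4, 3 and 1 in db/db (log2 fold change -3.80, SE 0.71, adjusted p = 0.000380, and -4.52 without db/db library 2). It is 1 of the 2 members that reached 5 counts in wild type libraries only, so its place in the table and its test rest on those libraries.

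Summed over fragments, the short ends were lower in db/db in all 3 isoacceptors. The Phe-GAA sum came to 2100, 3985, 860 and 1678 counts in wild type and 106, 79, 858 and 133 in db/db (log2 fold change -3.74, SE 0.57, adjusted p = 0.000301, edgeR). For Tyr-GTA it was 1954, 3373, 938 and 1634 in wild type and 95, 81, 771 and 164 in db/db (log2 fold change -3.65, SE 0.51, adjusted p = 0.000161), and for Trp-CCA 309, 437, 313 and 336 in wild type and 36, 46, 254 and 96 in db/db (log2 fold change -2.35, SE 0.37, adjusted p = 0.000311). Without db/db library 3 the log2 fold changes of these sums were -4.37, -4.16 and -2.58. Of 130 such sums over the table, 23 were called lower, which is 17.7%.

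The sums of complete ends did not pass the test in any of the 3 isoacceptors. Their log2 fold changes were -0.64 for Phe-GAA (SE 0.46, adjusted p = 0.390), -0.092 for Tyr-GTA (SE 0.36, adjusted p = 0.854) and 0.42 for Trp-CCA (SE 0.32, adjusted p = 0.431, all edgeR). The sign of the Tyr-GTA and Trp-CCA values changed with the scaling or when 1 library was left out. TMM factors were set separately for sequences, for sums per end class and for isoacceptor totals, so values of different levels are not on one scale. Without normalisation factors the log2 fold change was 0.216 for the complete ends of Trp-CCA and 0.203 for the Trp-CCA total.

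The share of short ends compares fragments within a library and so does not depend on scaling between libraries. It is the count of sequences 1 to 3 bases short divided by that count plus the count of sequences that end in CCA. For Phe-GAA the share stood at 33.1%, 34.0%, 35.5% and 27.1% in wild type and 3.72%, 5.32%, 6.12% and 5.43% in db/db, or 32.4% ± 3.70 and 5.15% ± 1.02 (SD, n = 4). The log2 odds differed by -3.16 (SE 0.20). About 1 in 3 of these Phe-GAA ends was short in wild type β-cells, and Phe-GAA had the highest wild type share of the 23 isoacceptors with at least 100 short counts.

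The same share was smaller for tyrosine and far smaller for tryptophan. Tyr-GTA had 20.97%, 24.2%, 19.3% and 16.8% in wild type and 1.403%, 2.06%, 2.53% and 2.72% in db/db, or 20.3% ± 3.10 and 2.18% ± 0.587 (SD, n = 4; log2 odds difference -3.54, SE 0.26). Trp-CCA had 0.564%, 1.18%, 0.863% and 0.545% in wild type and 0.0658%, 0.161%, 0.0902% and 0.163% in db/db, or 0.788% ± 0.299 and 0.120% ± 0.0494 (SD, n = 4; log2 odds difference -2.74, SE 0.42). In each isoacceptor every wild type library lay above every db/db library, and the two-sided exact permutation test gave p = 0.0286, the smallest that 4 libraries against 4 allow, with the same value after adjustment over the 3.

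A lower share of short ends was not particular to these tRNAs. In 21 of the 23 isoacceptors the share did not overlap between the genotypes, which is 91.3%. Across the 8 libraries the log2 odds of Phe-GAA moved most like those of Cys-GCA (r = 0.995) and Gln-CTG (r = 0.993), those of Tyr-GTA most like Gln-CTG (r = 0.998) and Cys-GCA (r = 0.994), and those of Trp-CCA most like Gly-ACC (r = 0.985) and Ala-CGC (r = 0.973). These correlations describe libraries that also differ by genotype.

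**Figure D2:**
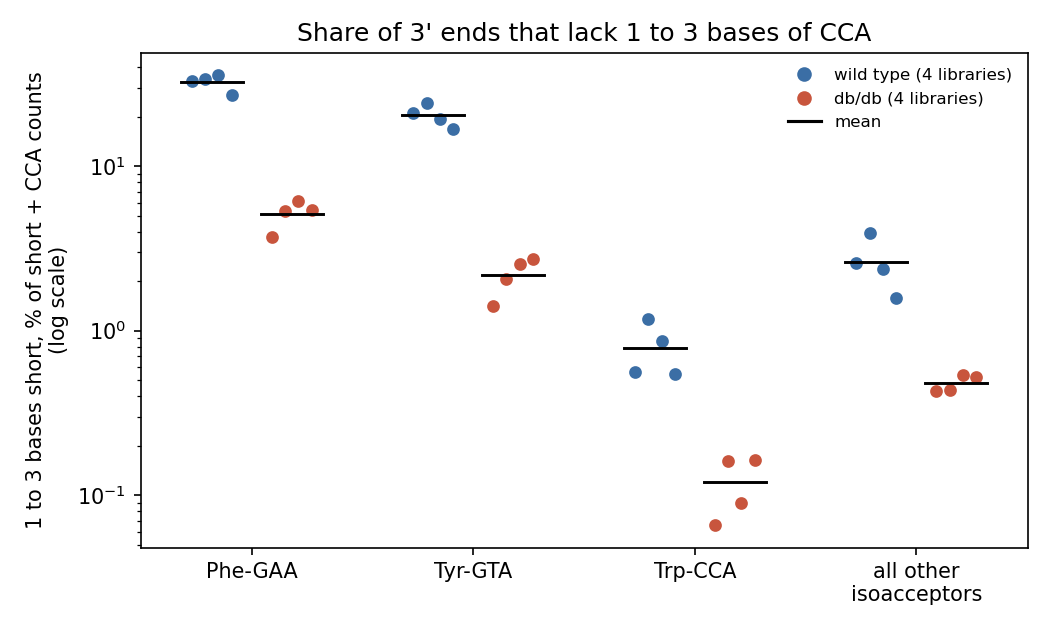
Percent of counts that are 1 to 3 bases short among short and CCA-ending counts (vertical axis, log scale), for each library of Phe-GAA, Tyr-GTA, Trp-CCA and all other isoacceptors summed; points are libraries and black lines are means of 4. In each column the 4 wild type libraries lie above the 4 db/db libraries.

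Differences between the isoacceptors in how far the share fell were not established. In log2 odds, the fall in Trp-CCA was 0.41 smaller than in Phe-GAA (adjusted p = 0.229) and 0.80 smaller than in Tyr-GTA (adjusted p = 0.114), and the fall in Tyr-GTA was 0.39 larger than in Phe-GAA (adjusted p = 0.114, two-sided exact permutation tests adjusted over 4 differences). Over the 3 isoacceptors summed, 6.20%, 12.4%, 4.85% and 4.71% of the ends were short in wild type and 0.368%, 0.605%, 0.578% and 0.584% in db/db. Over all other isoacceptors summed the share was 2.58%, 3.94%, 2.36% and 1.58% in wild type and 0.430%, 0.433%, 0.538% and 0.523% in db/db. The log2 odds of the aromatic sum minus those of the others were 1.32 lower in db/db, without overlap (exact permutation p = 0.0286, adjusted p = 0.114). That p is the smallest possible with 4 libraries against 4, so a single difference could not pass after adjustment over the 4. Both sums pool isoacceptors of unequal weight: the aromatic sum fell by 3.73 in log2 odds, more than any of its 3 members, and the sum of the others, which fell by 2.41, held 3864482 complete counts of Asp-GTC, whose own difference was -0.26. Taken singly and ordered from the largest fall, Tyr-GTA was 5th, Phe-GAA 8th and Trp-CCA 14th of the 23 isoacceptors. Trp-CCA, with its few short ends, held most of the counts in the aromatic sum.

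The share was also counted over only those starts at which both a complete and a short sequence were in the table. On these starts the wild type share was 35.3% ± 3.81 for Phe-GAA, 29.0% ± 4.03 for Tyr-GTA and 1.44% ± 0.551 for Trp-CCA, and the db/db share 6.08% ± 1.20, 4.197% ± 1.14 and 0.239% ± 0.0940 (SD, n = 4). The libraries did not overlap in any of the 3 (exact permutation p = 0.0286 each).

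By distance from the end, the 3 tRNAs differed in which short forms were present. Per 1000 complete counts, Phe-GAA had 325 ± 56 counts 1 base short in wild type and 28.3 ± 7.31 in db/db, which is a ratio of 11.5. It had 79.3 ± 11.6 against 16.7 ± 3.71 at 2 bases short and 78.9 ± 20.3 against 9.39 ± 3.86 at 3 bases short (SD, n = 4). No Phe-GAA sequence 4 bases short was in the table.

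A further Phe-GAA group ended 5 bases short, with 7 sequences of 19 to 28 nt.
Phe-GAA 28 nt, 5 bases short: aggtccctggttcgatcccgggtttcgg
Phe-GAA 24 nt, 5 bases short: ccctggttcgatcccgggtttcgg
Per 1000 complete counts they had 71.9 ± 18.1 in wild type and 17.7 ± 8.66 in db/db, and all 4 that were tested were called lower, 1 of which passed the filter through wild type libraries only. Among all 502 tested sequences of the table that neither end in CCA, are 1 to 3 bases short nor belong to a 5′ set, 15 were called lower and 25 higher. The 22-nt one, the most abundant, had 118, 173, 49 and 69 counts in wild type and 4, 6, 142 and 17 in db/db (log2 fold change -2.60, SE 0.61, adjusted p = 0.00348, edgeR), with overlap through db/db library 3. The value was -3.79 without that library, and the call was lost with the authors' effective library sizes (-2.79, adjusted p = 0.136). The sum of the 7 was 348, 663, 116 and 206 counts in wild type and 18, 29, 358 and 38 in db/db (log2 fold change -2.54, SE 0.68, adjusted p = 0.0146), with -3.54 without db/db library 3 and -1.91 without wild type library 2.

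For Tyr-GTA the table held forms 1 and 2 bases short and none 3 bases short. Per 1000 complete counts they were 150 ± 23.97 in wild type and 11.6 ± 3.68 in db/db at 1 base short, a ratio of 12.9, and 107 ± 29.5 against 10.7 ± 3.89 at 2 bases short (SD, n = 4), a ratio of 9.94. Trp-CCA had 7.95 ± 3.04 per 1000 in wild type and 1.20 ± 0.496 in db/db at 3 bases short, a ratio of 6.62. No Trp-CCA sequence 1 or 2 bases short was in the table.

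**Figure D3:**
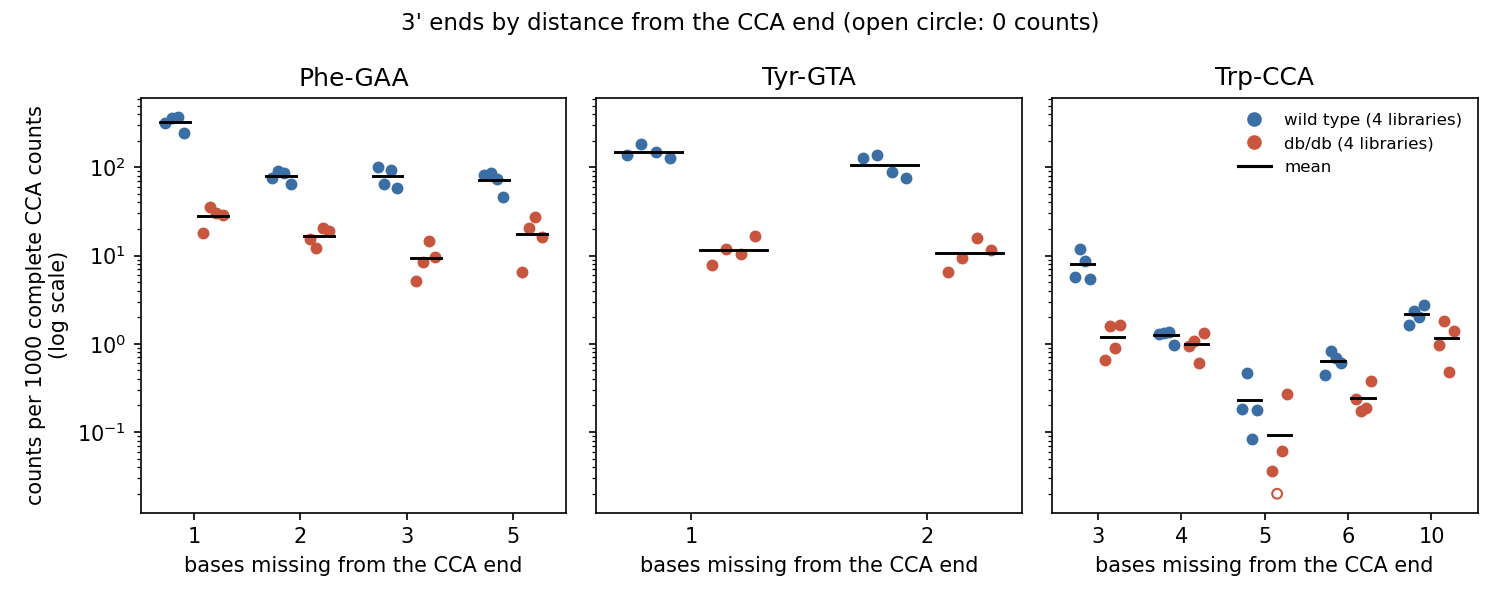
Counts per 1000 complete CCA counts of the same library (vertical axis, log scale) by the number of bases missing from the end, for Phe-GAA, Tyr-GTA and Trp-CCA; points are libraries, black lines are means of 4, and an open circle is a library with 0 counts. Forms that are 1 to 3 bases short lie higher in all wild type libraries in each isoacceptor, while the Trp-CCA forms 4 bases short overlap.

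Trp-CCA also had ends that lay further inside. Of the 17 Trp-CCA sequences of other kinds, 10 were tested and 0 called, with log2 fold changes of -1.28 to 0.26, and their sum was 226, 262, 204 and 337 counts in wild type β-cells and 201, 134, 520 and 255 in db/db (log2 fold change -0.36, SE 0.22, adjusted p = 0.303, edgeR), without overlap in normalised counts. The 4 sequences that are 4 bases short had 1.25 ± 0.1796 counts per 1000 complete counts in wild type and 0.988 ± 0.301 in db/db (SD, n = 4), with overlap. The 2 that are 6 bases short had 0.640 ± 0.160 and 0.243 ± 0.0919, a ratio of 2.63 without overlap, and the 1 that is 5 bases short had 0.228 ± 0.165 and 0.0923 ± 0.123, with overlap.

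A group of 5 Trp-CCA sequences of 26 to 28 nt ended 10 bases short.
Trp-CCA 28 nt, 10 bases short: tcagaaggttgcgtgttcaagtcacgtc
This sequence, the most abundant of the other kinds, had 33, 34, 20 and 54 counts in wild type and 17, 19, 32 and 20 in db/db (log2 fold change -1.18, SE 0.47, adjusted p = 0.129, edgeR). It was called lower by DESeq2 (-1.21, adjusted p = 0.0505), with implied library totals (-1.60, adjusted p = 0.0817), and without wild type library 3 (-1.24, adjusted p = 0.0993) or db/db library 2 (-1.42, adjusted p = 0.0848, edgeR). The 5 together had 2.19 ± 0.491 per 1000 complete counts in wild type and 1.17 ± 0.575 in db/db, with overlap. Another 5 could not be placed on the 3′ end.

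A set of 10 Phe-GAA sequences of 21 to 30 nt began at the same base and was taken as the 5′ set.
Phe-GAA 25 nt, 5′: gccgaaatagctcagttgggagagc
Phe-GAA 30 nt, 5′: gccgaaatagctcagttgggagagcgttag
The 25-nt sequence, the most abundant, had 307, 291, 168 and 306 counts in wild type and 194, 118, 764 and 191 in db/db (log2 fold change -0.71, SE 0.36, adjusted p = 0.256, edgeR). Of 9 tested, 1 of 29 nt was called lower (166, 392, 91 and 139 counts in wild type and 62, 75, 324 and 52 in db/db, log2 fold change -1.53, SE 0.47, adjusted p = 0.0302), with overlap. Among all 268 tested 5′ sequences of the table, 10 were called lower and 9 higher. The sum of the 10 of Phe-GAA did not pass (log2 fold change -0.55, SE 0.35, adjusted p = 0.339).

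Neither Tyr-GTA nor Trp-CCA had such a 5′ set in the table, and the rule of 5 sequences could not recognise a single 5′ fragment. Tyr-GTA had 1 sequence of 16 nt that could not be placed on the 3′ end, and 3 that stop 1 base after the letters of the anticodon, which are in capitals.
Tyr-GTA 16 nt, not placed: ccttcgatagctcagc
Tyr-GTA 21 nt, anticodon: tggtagagcggaggactGTAg
Tyr-GTA 17 nt, anticodon: agagcggaggactGTAg
Tyr-GTA 16 nt, anticodon: gagcggaggactGTAg
The first had 76, 73, 59 and 69 counts in wild type and 43, 20, 189 and 64 in db/db (log2 fold change -0.83, SE 0.40, adjusted p = 0.239, edgeR). The 3 anticodon fragments had too few counts to be tested, with 3 to 18 counts per wild type library and 5 to 33 per db/db library.

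Complete 3′ fragments had length profiles of their own in each isoacceptor. Fragments of 27 to 30 nt made up 47.2% ± 6.29 of the Phe-GAA counts that end in CCA, 44.6% ± 4.76 of those of Tyr-GTA and 9.49% ± 1.61 of those of Trp-CCA in wild type, and 40.9% ± 4.97, 44.4% ± 5.08 and 8.96% ± 1.81 in db/db (SD, n = 4). Trp-CCA had 38.4% ± 0.556 of its counts at 23 to 26 nt in wild type, where Tyr-GTA had 2.31% ± 1.21.

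Differences in mean length between the genotypes did not pass the test in any isoacceptor. The mean length of Trp-CCA fragments stood at 21.71, 21.95, 21.72 and 22.03 nt in wild type and at 21.08, 21.67, 21.38 and 21.57 nt in db/db, a difference of -0.424 nt without overlap that did not pass after adjustment (exact permutation p = 0.0286, adjusted p = 0.0857). That p is the smallest possible, so a single isoacceptor could not pass the 0.05 threshold for exact tests after adjustment. Fragments of 16 and 17 nt made up 19.2% ± 1.17 of the CCA-ending Trp-CCA counts in wild type and 23.9% ± 2.05 in db/db. The mean length of Phe-GAA fragments came to 23.7 ± 0.733 nt in wild type β-cells and to 22.8 ± 0.533 nt in db/db (SD, n = 4; exact permutation adjusted p = 0.171), and that of Tyr-GTA fragments at 22.9 ± 0.526 and 22.9 ± 0.609 nt (exact permutation adjusted p = 0.914).

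**Figure D4:**
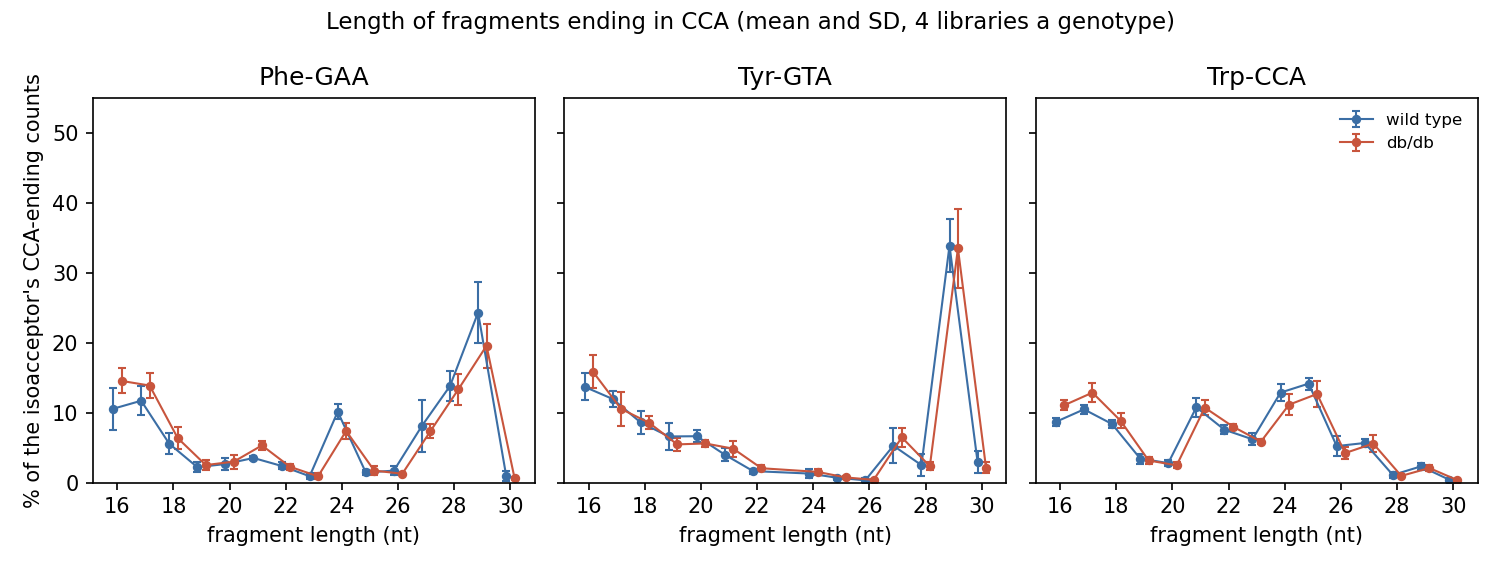
Percent of each isoacceptor's CCA-ending counts (vertical axis) by fragment length in nt, as mean and SD of 4 libraries per genotype. Phe-GAA and Tyr-GTA have a peak at 29 nt, and Trp-CCA has none there.

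Just after the letters gttc, by which the T loop of a tRNA is usually recognised, the deposited sequences of Tyr-GTA and Trp-CCA differ from each other at single bases, and these were not matched to tRNA genes. The variants were noticed in the data, so their shares are given as a description with no test. Counted from the 3′ end, the 18th base of Tyr-GTA was A, C or T, and in Trp-CCA the 20th base and the 18th base were A and A, A and G, or G and A. The last 24 bases are shown with the variable bases in capitals.
Tyr-GTA variant T: gttcgaTtccggctcgaaggacca
Tyr-GTA variant A: gttcgaAtccggctcgaaggacca
Trp-CCA variant AG: gttcAaGtcacgtcggggtcacca
Trp-CCA variant AA: gttcAaAtcacgtcggggtcacca
Trp-CCA variant GA: gttcGaAtcacgtcggggtcacca

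Among CCA-ending Tyr-GTA fragments that reach the variable base, the T variant took a lower share in db/db β-cells. It held 73.5%, 74.0%, 74.1% and 73.4% in wild type and 56.6%, 57.6%, 56.7% and 57.35% in db/db, a difference of -16.7 percentage points. The A variant held 21.2%, 21.5%, 19.7% and 21.2% in wild type and 37.5%, 36.3%, 37.2% and 36.8% in db/db, a difference of 16.1 points. The spread within a genotype was below 1 percentage point (SD, n = 4) for both, and the genotypes did not overlap. The C variant held 5.34% ± 0.705 and 5.97% ± 0.1404.

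The ratio of A to T fragments was 0.283 ± 0.0121 in wild type against 0.648 ± 0.0145 in db/db (SD, n = 4), a 2.29-fold difference. It was higher in db/db at each of the 12 lengths at which both variants were in the table, by 0.82 to 1.62 on the log2 scale, and did not overlap at 10 of them. As single sequences, 0 of the 12 tested A fragments and 0 of the 11 tested T fragments were called, with median log2 fold changes of 0.38 and -0.81.

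The Trp-CCA variants also differed in share between the genotypes. The AG variant held 44.9%, 44.2%, 43.2% and 42.0% in wild type and 30.3%, 34.7%, 36.7% and 31.5% in db/db, a difference of -10.3 points. The AA variant held 31.2%, 28.5%, 29.9% and 31.01% in wild type and 43.1%, 41.6%, 40.7% and 39.3% in db/db, a difference of 10.99 points. Neither overlapped between the genotypes, whereas the GA variant did, at 26.3% ± 1.59 and 25.5% ± 2.95 (SD, n = 4).

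The ratio of AA to AG fragments was 0.693 ± 0.0382 in wild type against 1.24 ± 0.132 in db/db (SD, n = 4). It was higher in db/db at each of 11 lengths, by 0.42 to 1.06 on the log2 scale, and did not overlap at 10 of them. As single sequences, 0 of the 33 fragments of the 3 variants were called.

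Ratios of this kind were compared over the whole table through pairs of CCA-ending sequences of one isoacceptor and length that differ at a single base, each with at least 100 counts. Of 219 pairs, 86 did not overlap between the genotypes, which is 39.3%. Among the aromatic isoacceptors it was 19 of 23 pairs of Trp-CCA, 13 of 26 of Tyr-GTA and 1 of 2 of Phe-GAA, and among the other 22 isoacceptors 53 of 168. Singly, Leu-AAG had 13 of 13 and Arg-TCT 13 of 15, with median sizes of the log2 ratio difference, signs dropped, of 1.68 and 1.29 beside 0.74 for Trp-CCA and 0.76 for Tyr-GTA. Pairs of one isoacceptor share the same variable base and are not independent of each other.

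**Figure D5:**
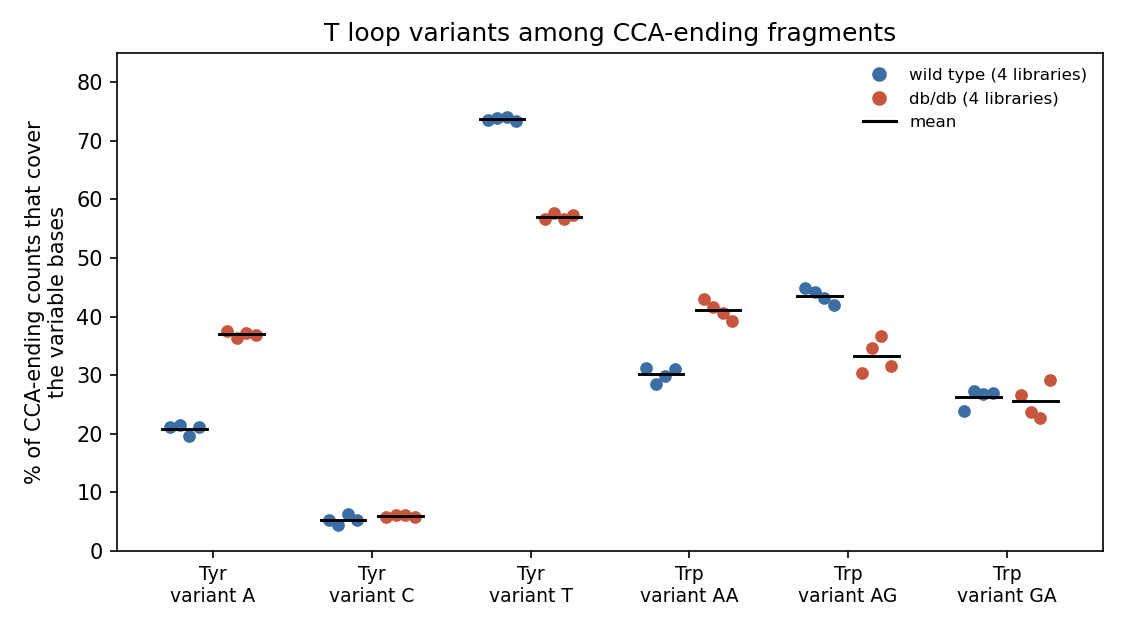
Percent of CCA-ending counts that cover the variable bases (vertical axis, from 0) held by each T loop variant of Tyr-GTA and Trp-CCA; points are libraries and black lines are means of 4. The T variant of Tyr-GTA and the AG variant of Trp-CCA lie lower in all 4 db/db libraries and the A and AA variants higher, while the C and GA variants overlap.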

How the data were processed

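Small RNA was sequenced from 8 libraries, 4 of db/db and 4 of wild type β-cells, from a kit with unique molecular identifiers. The authors' deposited table holds, per tRF and library, a count of unique molecules, the same count as RPM rounded to a whole number (used as a score), and a normalised value on the log2 scale. The reads were aligned to GRCm38.p6 and matched to mature tRNAs without mismatches by the authors, so a fragment with a sequencing error or a base that reverse transcription misreads is not in the table. The authors' direction of change in words was not used, and 0 further columns of samples were present. Counts were tested here. The deposited scores gave library totals, and the deposited log2 values gave effective library sizes, both for alternatives.

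Counts were fitted with edgeR 4.0.16 in R 4.3.3 (quasi-likelihood, TMM, filterByExpr at 10 counts and 15 in total) for sequences, for sums per isoacceptor and end class, and for isoacceptor totals, with Benjamini-Hochberg adjustment over the whole table; DESeq2 1.42.0 was an alternative. The 3′ end of a fragment was set from a CCA-ending fragment of the same isoacceptor that shared 12 or more bases with it, and a 5′ set needed 5 sequences that share their first 8 bases. Shares used log2 odds with 0.5 added to each count and exact permutation tests (70 ways to assign the libraries). Named sequences were the most abundant of each end class, the largest change without overlap, and the ladder at the start with the most short counts; other sequences named here were chosen after their values were seen. The members and lists were chosen with earlier results of these data known. In simulated tables with a log2 fold change of 2, 91.4% of 185 changed sequences, among 1972 tested, were recovered for the comparison of the genotypes. Another 7 sequences were called falsely.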

Additional observations from a re-analysis of the deposited data

Results flagged for a closer look

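Of 102 groups of 4 libraries examined, 9 held a library far from the other 3 (Dixon's test); chance flags about 1 in 20 groups. In 6 of them the library was db/db library 3, the deepest of the 8. There the short ends of Phe-GAA made up 0.0291% of tRF counts, beside 0.0134% to 0.0138% in the other db/db libraries. The complete 29-nt and 27-nt fragments of Phe-GAA had 1276 and 447.5 CPM there, beside 328 to 474 and 157 to 193. The 26-nt form 1 base short had 19.5 CPM, beside 2.66 to 3.61, and the 25-nt form 2 bases short 45.7 CPM, beside 7.22 to 10.7. The complete 29-nt fragment of Tyr-GTA had 2713 CPM, beside 973 to 1101.

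In db/db library 2 the 22-nt Trp-CCA fragment 3 bases short had 7.22 CPM, beside 0.888 to 1.25. In db/db library 1 the share of short ends over the 3 isoacceptors was 0.368%, beside 0.578% to 0.605%. In wild type library 1 the GA variant of Trp-CCA held 23.9%, beside 26.9% to 27.3%.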

How the results depend on the processing

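The lower sums of short ends kept their direction and call under every alternative run and with each library left out in turn, as did the short shares, with differences in log2 odds without one library of -3.28 to -3.00 for Phe-GAA, -3.67 to -3.34 for Tyr-GTA and -2.93 to -2.49 for Trp-CCA. Lower-called members numbered 44 to 63 under the other settings and 48 to 70 without one library; 1 member was called higher without wild type library 2 (range 0 to 1). Over all sequences 275 were called, 163 with the authors' effective library sizes, and 256 to 380 without one library. These sizes and the totals implied by the RPM scores moved the median of all sequences by -0.51 and -0.36. The Phe-GAA total was -1.86 with the effective sizes (adjusted p = 0.883) and -1.61 to -0.89 without one library. Values near 0 changed sign: the complete ends of Trp-CCA were -0.074 with implied totals and -0.029 with effective sizes (-0.011 to 0.58 without one library, negative without db/db library 3), the Trp-CCA total -0.088 and -0.043 (-0.10 to 0.29), the complete ends of Tyr-GTA -0.45 to 0.19 (positive without wild type library 2 or, at 0.065, db/db library 4), and the complete 27-nt Trp-CCA fragment 0.093 without a normalisation factor, 0.071 without a filter and 0.074 with at least 10 counts in 4 libraries (-0.25 to 0.26). The Tyr-GTA length difference was 0.571 nt without the most abundant sequence (-0.254 to 0.232 without one library). Variant shares, added after seeing the data together with their alternatives, differed by 0.352 to 0.927 points for C and -1.93 to 0.251 for GA without one library. The cause of these changes was not tested. Classes by position in tRNA genes were not run, and forms 1 base short could not be had for Trp-CCA. Of the 17 short Trp-CCA sequences, 8 had too few counts to be tested. No paired analysis was possible because db/db and wild type libraries have no replicate number in common in GEO's labels.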
